A study of Homo sapiens with 6 samples.

Results

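The S100 genes encode small calcium-binding proteins, and 8 of the 1099 genes in the authors' deposited table carry a name that starts with S100: S100A2, S100A4, S100A6, S100A11, S100A13, S100A14, S100A16 and S100P. They were taken by that name, all of them, with no rule on their values. The table itself was not: it holds the 1099 genes with the smallest p-values among 11289 that the authors had tested between the same groups, so every member had already been selected on the comparison described here. The other 12 genes of a list of 20 human S100 genes, among them S100A8, S100A9, S100A10 and S100B, were not in the table and were not analysed here.

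Poly(A) RNA had been sequenced from wild-type cells that the labels give as A549, a line from a lung adenocarcinoma, at 24 h of treatment. In 3 libraries the cells had received F/B extract, made per the title of the series from Flos Sophorae Immaturus together with seed of broccoli, and in 3 they had received DMSO, the vehicle. No dose of extract is stated in the labels. The title names slowed tumour growth, arrest at G2/M and the epithelial to mesenchymal transition as the subject. Separate cultures are not mentioned for the replicates, so p-values reflect the spread of these libraries and that spread may be technical.

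The label A549 is in doubt, because the library names in the labels begin with AGS, the name of a gastric carcinoma line. MTAP, a gene deleted in A549, stood at 48.9 to 60.5 TPM (transcript abundance scaled for length and library) over the 6 libraries, and VIL1, the villin of brush borders, at 142 to 214 TPM. Of 13 gastrointestinal markers 4 were listed, and their summed level was 224 to 256 TPM with extract and 327 to 341 TPM with vehicle. Of 10 lung markers 1 was listed, LAMP3, at 23.45 to 29.5 TPM with extract and 19.8 to 20.5 TPM with vehicle. Of 7 fibroblast markers 1 was listed (COL1A1, 10.0 to 14.85 TPM with extract and 12.8 to 15.8 TPM with vehicle), and of 8 squamous markers 1 (KRT13, 10.3 to 11.1 TPM with extract and 23.7 to 29.3 TPM with vehicle). Of 8 myeloid markers, which include S100A8, S100A9 and S100A12, 0 were listed. A marker that is not listed may still be expressed, since the table holds only genes selected on the comparison. The part of these markers in the S100 values below was not tested. In RNA from a whole culture, fewer cells that express a gene and less of its RNA per cell cannot be told apart.

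S100 proteins are found in vertebrates only and carry a pair of EF hands, helix-loop-helix folds whose loop holds a calcium ion. Most form dimers, and calcium turns a helix outward to expose a hydrophobic face that grips partner proteins such as annexins, cytoskeletal motors and p53. Most of the genes lie in a cluster on the long arm of chromosome 1, next to genes of the skin's cornified envelope, while a few, S100P among them, lie elsewhere. In epithelia several are known as markers that change with differentiation and with invasive growth.

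The loop of the second EF hand is the feature that the members share in sequence, and its coding sequence is shown for the 7 members in which it was found. It was searched in the coding sequence of the annotated transcript (GENCODE release 29, GRCh38) closest in length to the length that the authors give. The lengths were equal except for S100P (1279 bases, against 471 given by the authors) and S100A11 (594 bases, against 563). The pattern asked for 12 codons with an aspartate codon at position 1, aspartate, asparagine or serine codons at positions 3 and 5, and a glutamate codon at position 12. Capitals mark these 4 codons.
S100A2: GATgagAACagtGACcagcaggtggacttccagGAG
S100A4: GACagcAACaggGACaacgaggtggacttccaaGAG
S100A16: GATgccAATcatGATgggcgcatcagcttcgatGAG
S100A6: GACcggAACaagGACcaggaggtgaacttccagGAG
S100A13: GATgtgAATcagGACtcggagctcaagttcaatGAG
S100P: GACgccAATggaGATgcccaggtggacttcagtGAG
S100A11: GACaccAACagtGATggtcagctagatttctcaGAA
S100A14, whose coding sequence has 104 codons, held no such stretch. Its protein is known for an incomplete calcium loop. The most alike loops were those of S100A6 with S100A2 and of S100A6 with S100A4, each with 29 of 36 bases the same, and S100A2 shared 27 with S100A4. S100P shared 24 of 36 with S100A4, 23 with S100A2 and with S100A11, and 20 with S100A6. Over whole transcripts the longest exact run shared by any pair of members was 17 bases, between S100A2 and S100A4, so the members are not near-identical copies of each other.

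Their positions put 7 members on chromosome 1 and S100P alone on chromosome 4. All coordinates are GRCh38, from GENCODE release 29. S100A11 lies at chr1:152032506-152047907 on the minus strand. After a gap of 1486.7 kb, the other 6 lie in a block of 96.8 kb, all on the minus strand: S100A6 at chr1:153534599-153536244, S100A4 at chr1:153543613-153550136, S100A2 at chr1:153561108-153567890, S100A16 at chr1:153606886-153613145, S100A14 at chr1:153614255-153616986 and S100A13 at chr1:153618787-153631360. S100P lies at chr4:6693069-6697170 on the plus strand. The block holds 8 protein-coding genes in full, and the 2 that the table does not list are S100A5 and S100A3. S100A4 overlaps S100A3 on the same strand. S100A13 overlaps S100A1 on the opposite strand and a noncoding transcript, AL162258.1, on its own strand. S100A11 and S100A6 each overlap a noncoding gene on the opposite strand. Whether the authors counted by strand is not given in the sources used here, so reads of opposite-strand partners could not be told apart without it. The estimated counts of S100A13 were whole in 0 of 6 libraries, those of S100A16 in 5, and those of the other 6 members in all 6.

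With extract all 8 members stood lower. In edgeR's quasi-likelihood test 7 of the 8 fell (adjusted p under 0.05), and S100A11 did not pass. Of all listed genes 81.6% were called in either direction and 52.6% were called lower (578 of 1099), or 5.12% of the 11289 genes the authors tested. The median log2 fold change was -0.37 over the members and -0.22 over all listed genes. Extract and vehicle libraries did not overlap in any of the 8, in normalised counts (estimated counts divided by a size factor per library), as was so in the direction lower for 63.8% of listed genes. Since the members are listed because they differed, these shares are no separate evidence that they did. On the size of the change the family split: S100A2 and S100A4 stood at -0.996 and -0.90 on the log2 scale and the other 6 between -0.40 and -0.19. A gene with a larger SE needs a larger fold change to be listed. The SE was 0.12 for S100A2 and 0.13 for S100A4, against 0.04 to 0.07 for the other 6. How far the selection of the table shaped this split was not tested.

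**Figure D1:**
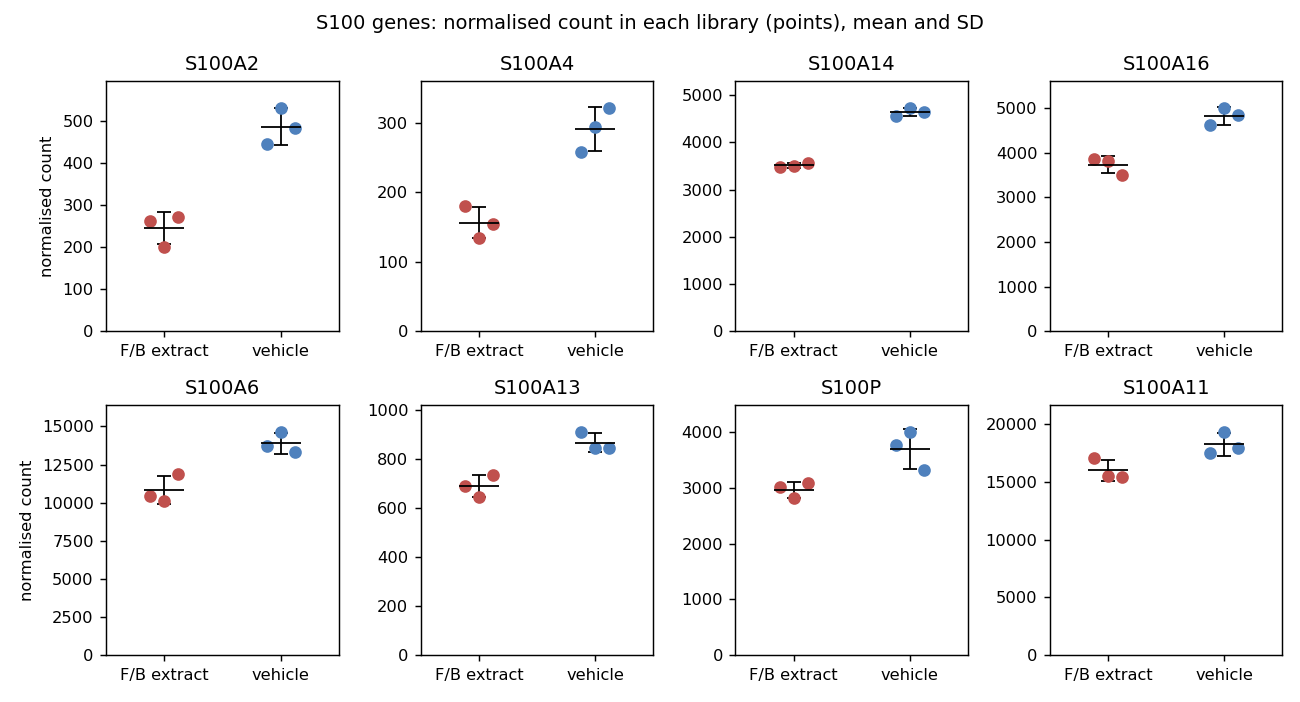
Normalised counts of the 8 S100 genes in each library (points), with the mean and SD of 3 libraries; F/B extract is on the left and vehicle on the right of each panel, and each vertical axis starts at 0. In every panel the 3 extract libraries lie below the 3 vehicle libraries, with the widest relative gap in S100A2 (245 against 486) and the narrowest in S100A11 (16027 against 18283).

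S100A2, a mostly nuclear S100 protein of basal epithelial cells that binds p53, fell the most. It had 261, 201 and 272 normalised counts in extract replicates 1 to 3, against 445, 531 and 483 in vehicle replicates 1 to 3. The highest extract library lay well below the lowest vehicle library. The log2 fold change was -0.996 (SE 0.12, edgeR adjusted p = 0.00268), which is 1.99-fold lower. By fold change it stood at place 12 from the lowest of the 1099 listed genes. In TPM it was 35.9 ± 4.97 with extract and 65.5 ± 4.47 with vehicle (SD, n = 3 each).

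S100A4, also called metastasin, binds the heavy chain of nonmuscle myosin IIA and is used as a marker of mesenchymal cells. VIM, another such marker, was higher with extract, at 0.67 in log2 fold change (edgeR adjusted p = 0.0111). No list of such markers was set here. S100A4 had 179, 134 and 154 normalised counts in extract replicates 1 to 3, against 258, 294 and 321 in vehicle replicates 1 to 3. Again no extract library reached the lowest vehicle library. The log2 fold change was -0.90 (SE 0.13, edgeR adjusted p = 0.00483), or 1.87-fold lower, at place 20. In TPM it was 45.7 ± 5.50 with extract and 78.2 ± 8.26 with vehicle (SD, n = 3 each). The log2 fold changes of S100A2 and S100A4 differed by less than the SE of either. Both are the least abundant members in counts, and the spread between extract libraries was wider for them than for the others, with a coefficient of variation of 15.5% for S100A2 and 14.45% for S100A4.

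S100A14 and S100A16, neighbours in the block that are expressed in epithelia, fell by similar amounts with little spread. S100A14 had 3469, 3501 and 3564 normalised counts in extract replicates 1 to 3, against 4551, 4729 and 4645 in vehicle replicates 1 to 3. Its log2 fold change was -0.40 (SE 0.04, edgeR adjusted p = 0.00120). It had the smallest SE of the 8, and by p-value it stood at place 13 of all listed genes. S100A16 had 3858, 3811 and 3508 normalised counts in extract replicates 1 to 3, against 4619, 5005 and 4847 in vehicle replicates 1 to 3. Its log2 fold change was -0.37 (SE 0.05, edgeR adjusted p = 0.00420). The distance between groups was several times the SD within them in both genes.

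S100A6, S100A13 and S100P fell by a little less, and their calls were less firm. S100A6, calcyclin, which binds annexins and the ubiquitin ligase adaptor CACYBP, had 10457, 10135 and 11900 normalised counts in extract replicates 1 to 3, against 13704, 14666 and 13332 in vehicle replicates 1 to 3, and its log2 fold change came to -0.36 (SE 0.06, edgeR adjusted p = 0.0113). S100A13, which takes part in the unconventional secretion of FGF1 and IL1A, had 692, 644 and 734 in extract replicates, against 913, 844 and 845 in vehicle replicates, or -0.33 (SE 0.07, edgeR adjusted p = 0.0174). S100P, found first in placenta and known to activate the membrane linker ezrin, had 3007, 2811 and 3092 in extract replicates, against 3773, 4012 and 3312 in vehicle replicates, or -0.32 (SE 0.07, edgeR adjusted p = 0.0234). In S100P the lowest vehicle library, replicate 3, came close to the highest extract library. The log2 ratios of mean TPM, extract over vehicle, were smaller: -0.17 for S100A6, -0.20 for S100A13 and -0.15 for S100P. Without extract replicate 2 the adjusted p of S100A6, S100A13 and S100P was 0.0580, 0.0902 and 0.106, and without vehicle replicate 2 it was 0.0703, 0.0723 and 0.118. The call of S100A13 was also lost without vehicle replicate 3 (adjusted p = 0.0540) and that of S100P without vehicle replicate 1 (adjusted p = 0.0576).

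S100A11, calgizzarin, a partner of annexin A1, had the smallest difference. It had 17057, 15567 and 15458 normalised counts in extract replicates 1 to 3, against 17512, 19389 and 17947 in vehicle replicates 1 to 3. Extract replicate 1 lay just under vehicle replicate 1. The log2 fold change was -0.19 (SE 0.06, edgeR adjusted p = 0.0795), which missed the threshold, and the log2 ratio of mean TPM was -0.05. S100A11 passed without extract replicate 1, at -0.24 (adjusted p = 0.0211), and with DESeq2's test on the same size factors (adjusted p = 0.0188). In the authors' deposited table its log2 fold change, given there as vehicle over extract, was 0.19 with an adjusted p of 0.0133.

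How many members were called depended on how the libraries were scaled. The size factors used are those that the authors' fold changes imply. Scales over the listed genes instead centre on genes that were all selected, 64.8% of them lower by the implied size factors. Scales computed from the listed genes raised their median log2 fold change, by 0.14 (sums), 0.15 (TMM) and 0.17 (DESeq2), and a scale read from TPM raised it by 0.08. Of all listed genes these scales called 86 to 214 lower and 371 to 387 higher, against 578 lower and 319 higher with the implied size factors. On each of the 4 scales the same 4 members were called lower: S100A2, S100A4, S100A14 and S100A16. S100A6, S100A13 and S100P then stood between -0.27 and -0.14 and S100A11 between -0.11 and -0.02. S100A2, S100A4, S100A14 and S100A16 also passed with each library left out in turn. All 8 stayed below 0 in each of the 16 other settings run, and for members selected as lower that adds no support. In TPM the groups did not overlap in 5 of the 8 (44.2% of listed genes were lower without overlap in TPM), the exceptions being S100A6, S100P and S100A11.

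**Figure D2:**
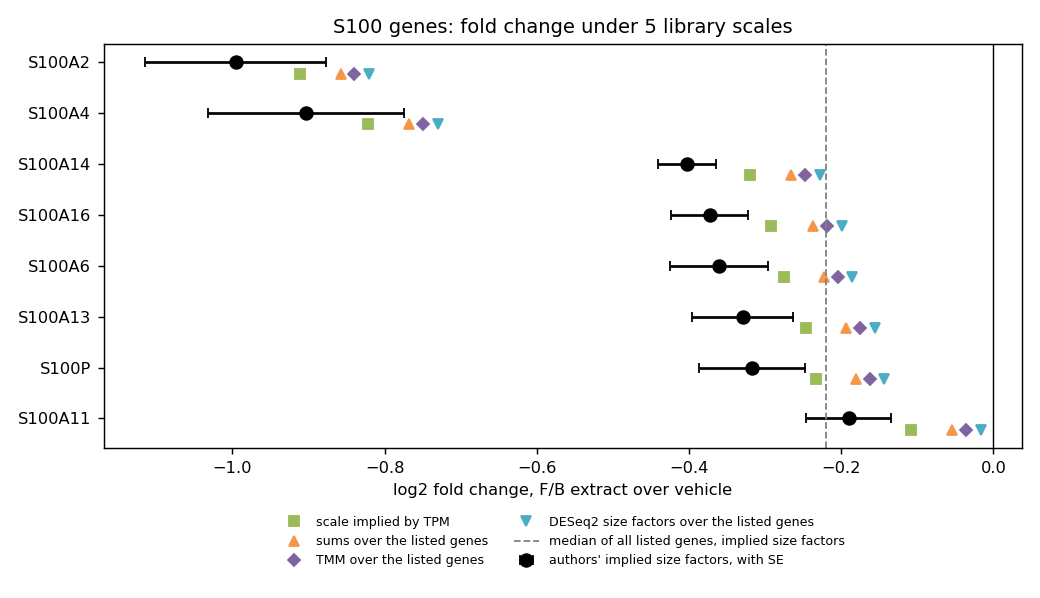
Log2 fold change of each S100 gene, F/B extract over vehicle, with the authors' implied size factors (black, bars show the SE) and with 4 other library scales (coloured); the dashed line is the median of all 1099 listed genes. S100A2 and S100A4 lie below -0.7 on every scale, and S100A11 comes within 0.02 of 0 when DESeq2 scales on listed genes.

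The levels of the members spanned a wide range, and their order was the same with extract and with vehicle. In TPM, which is per length, S100A6 stood highest at 5406 ± 423 with extract and 6099 ± 239 with vehicle (SD, n = 3 each). S100A11 followed at 4595 ± 190 with extract and 4752 ± 112 with vehicle, and S100P at 1243 ± 50.7 with extract and 1378 ± 127 with vehicle. The next were S100A14 (373 ± 17.9 with extract, 462 ± 3.64 with vehicle), S100A16 (357 ± 7.49 with extract, 433 ± 11.5 with vehicle) and S100A13 (249 ± 16.1 with extract, 286 ± 19.0 with vehicle), and S100A4 and S100A2 came last at the levels given above. With extract, the libraries of S100A14 (356 to 391 TPM) and S100A16 (349 to 363 TPM) overlapped. No other neighbours in this order overlapped in either group. The order depended on how length enters: as normalised counts per kilobase of the gene length that the authors give, S100A11 stood above S100A6 (28467 against 16093 with extract, 32474 against 20655 with vehicle), S100A16 above S100A14 and S100A2 above S100A4. The deposited lengths are 563 bases for S100A11 and 673 for S100A6, while 1 TPM corresponded to 3.26 counts for S100A11 and 1.85 for S100A6 in extract replicate 1.

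As a sum, the 8 listed S100 transcripts were lower with extract in all 3 libraries. The sum of the 8 was 12311, 11846 and 12755 TPM in extract replicates 1 to 3, or 1.18% to 1.28% of all TPM, against 13799, 13784 and 13077 TPM in vehicle replicates 1 to 3, or 1.31% to 1.38%. All 3 extract libraries lay below all 3 vehicle libraries (two-sided exact permutation p = 0.10, the smallest that 3 against 3 libraries can give). Since the members are listed because they differed, this is no separate evidence of a lower sum. All listed genes together also took less of all TPM with extract, 30.1% to 31.1%, against 32.3% to 33.1% with vehicle. The log2 ratio of the means was -0.14 in TPM and -0.29 in normalised counts per kilobase. S100A6 took 42.2% to 46.2% of the TPM of the 8 listed members with extract and 44.6% to 45.7% with vehicle, S100A11 took 37.4% ± 2.03 with extract and 35.1% ± 0.87 with vehicle, and S100P took 10.1% ± 0.05 with extract and 10.2% ± 0.64 with vehicle (SD, n = 3 each). These TPM shares overlapped between groups. As shares of normalised counts per kilobase, S100A6 took 26.6% with extract and 27.9% with vehicle, with overlap. S100A11 then took 47.1% ± 2.07 with extract and 43.9% ± 0.67 with vehicle (SD, n = 3 each). This was higher with extract without overlap (exact permutation p = 0.10, and 0.2 after adjustment over the 8 members). The TPM shares of S100A2 (0.29% with extract, 0.48% with vehicle), S100A4 (0.37% with extract, 0.58% with vehicle) and S100A14 (3.03% with extract, 3.41% with vehicle) were lower with extract in 3 of 3 libraries, each with exact permutation p = 0.10 and 0.267 after adjustment over the 8 members.

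The chromosome 1 members were compared with S100P as ratios within a library, in which the library scale cancels. Counts per TPM, which depend on the length used for a gene, do not cancel in ratios of normalised counts. Relative to the median over listed genes in each library, they were lower with extract for every member. For S100A6 they averaged 0.0757 with extract and 0.08161 with vehicle, for S100P 0.09029 with extract and 0.09615 with vehicle. For S100A14 they averaged 0.3558 with extract and 0.3599 with vehicle. The part of this in the ratios was not tested. S100A2 was at -3.53, -3.80 and -3.51 on the log2 scale relative to S100P in extract replicates 1 to 3, against -3.09, -2.92 and -2.78 in vehicle replicates 1 to 3. All extract ratios lay below all vehicle ratios, with a difference of -0.69. S100A4 was at -4.07, -4.39 and -4.33 relative to S100P in extract replicates 1 to 3, against -3.87, -3.77 and -3.37 in vehicle replicates 1 to 3. These did not overlap either, and the difference was -0.59. For both the two-sided exact permutation p was 0.10, the smallest possible, and 0.35 after adjustment over the 7 comparisons, so no difference from S100P could pass at this number of libraries.

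For the other 5 the ratios to S100P from normalised counts did not separate the groups. Their ratios to S100P differed between extract and vehicle by -0.09 for S100A14, -0.06 for S100A16, -0.05 for S100A6, -0.02 for S100A13 and 0.12 for S100A11, and the groups overlapped in all 5 (exact permutation p from 0.2 to 0.9). From TPM values the difference was -0.16 for S100A14, where the groups then did not overlap (exact permutation p = 0.10), and -0.13 for S100A16 (exact permutation p = 0.3). In these genes the SD of the ratio was 0.03 to 0.13 over extract libraries and 0.08 to 0.14 over vehicle libraries. The sum of the 7 members, which S100A11 and S100A6 dominate in counts, stood at 3.57 ± 0.04 relative to S100P with extract and 3.55 ± 0.11 with vehicle (log2, SD, n = 3 each), a difference of 0.01 (exact permutation p = 0.9). The mean of the 7 log2 ratios, which weights each gene alike, differed by -0.20 between extract and vehicle without overlap (exact permutation p = 0.10). That mean rests mostly on S100A2 and S100A4, at -0.69 and -0.59, and the other 5 ran from -0.09 to 0.12. It is therefore no separate result on the chromosome 1 members as a set.

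**Figure D3:**
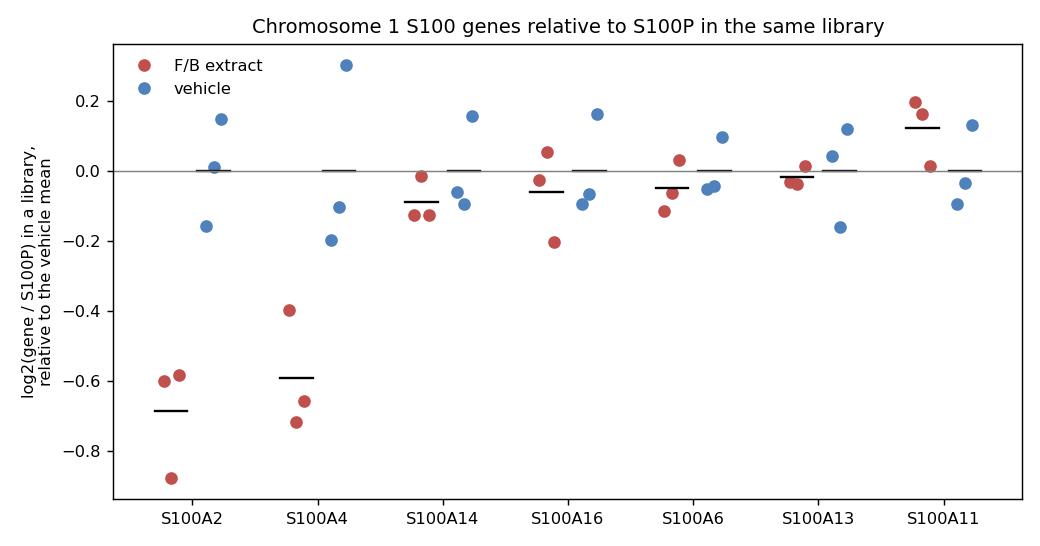
Log2 ratio of each chromosome 1 S100 gene to S100P in the same library, relative to the mean of the vehicle libraries; points are libraries and short lines are means of 3. For S100A2 and S100A4 all extract libraries lie below all vehicle libraries, and for the other 5 genes the groups overlap in these ratios, taken from normalised counts.

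Within the block the size of the change did not follow position in a simple order. S100A4 and S100A2, the neighbours with the lowest log2 fold changes, are flanked by S100A6 on one side and by S100A16, S100A14 and S100A13 on the other, all between -0.40 and -0.33. S100A3 lies inside the span of S100A4 and was not listed. Between S100A11 and S100A13, over 1598.9 kb with 62 protein-coding genes, 10 genes were listed and all 10 had a log2 fold change below 0, as had 64.8% of all listed genes. Of the 10, 7 are the members already described, which also set the ends of the stretch, so the count adds no separate support. The 3 outside the family were HRNR, FLG and SPRR2D. HRNR and FLG, hornerin and filaggrin, belong to the fused S100 proteins of the cornified layer, whose first part is an S100 domain.

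**Figure D4:**
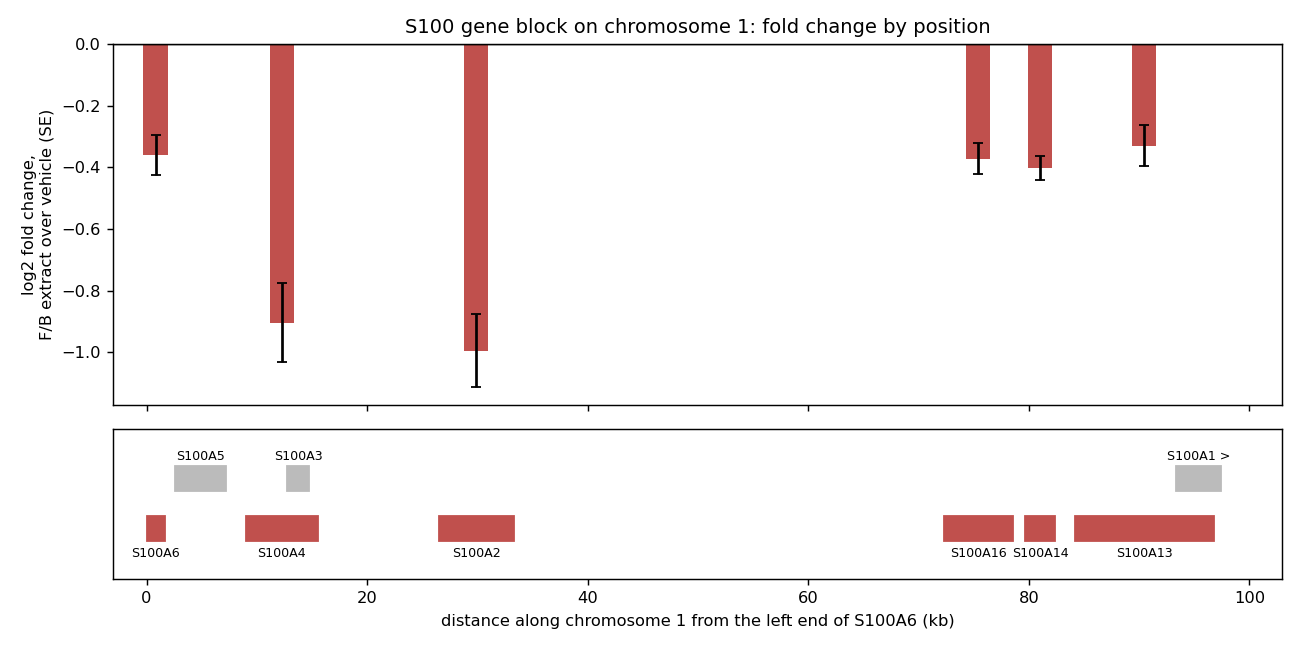
Log2 fold change, F/B extract over vehicle (bars, with SE), at the position of each S100 gene of the chromosome 1 block, with the genes drawn to scale below as distance from the left end of S100A6; red genes are listed, grey genes are not, and only S100A1 (>) lies on the plus strand. S100A4 (-0.90) and S100A2 (-0.996) lie next to members between -0.40 and -0.33.

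HRNR was at 2.30 to 3.06 TPM with extract and 3.34 to 5.24 TPM with vehicle, without overlap, and fell, at -0.70 in log2 fold change (SE 0.17, edgeR adjusted p = 0.0344). FLG, at 9.51 to 10.3 TPM with extract and 9.97 to 13.7 TPM with vehicle, had a log2 fold change of -0.34 and missed the threshold (edgeR adjusted p = 0.0889). SPRR2D, a small proline-rich protein of the cornified envelope, was at 55.15 to 60.2 TPM with extract and 56.4 to 93.7 TPM with vehicle, and at -0.52 it also missed it (edgeR adjusted p = 0.0985). Both of these overlapped between groups. The other 32 of 35 genes on the list of this epidermal differentiation complex were not in the table. HRNR and FLG consist largely of repeats, so that reads may be split within and between them, and on the 3 scales computed over the listed genes HRNR did not pass.

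The starts of the genes were searched for a TATA box, the element that places the start of transcription in many promoters. In RefSeq's windows of 250 bases before to 50 after each start (GRCh38.p14), all 8 members matched, with 12 windows. The letters TATAA, read on the gene's own strand 16 to 45 bases before the start, were in 5 of these 12 windows, 1 each for S100A4, S100A6, S100A13, S100A14 and S100P, against 4.09% of all 35116 windows. These 30 bases are shown for the 5, with the match in capitals, and for the upstream start of S100A2, which has none.
S100A4: gggcctggctggggTATAAataggtcagac
S100A6: cggggcaccgaccgcTATAAggccagtcgg
S100A13: ctccttccccgctgctTATAAacctcagcc
S100A14: cctcccttcccccaggTATAAgagctgagc
S100P: tcaatatgaggctgcctTATAAagcaccaa
S100A2: caggcatgtcatgagaatgaggcctggcac
They lie at chr1:153545822-153545851, chr1:153536007-153536036, chr1:153627521-153627550 and chr1:153616341-153616370 on the minus strand, at chr4:6693833-6693862 on the plus strand, and at chr1:153565860-153565889 on the minus strand. All 6 stretches lie within annotated exons of other transcripts of the same gene. The match begins 28 bases before the start in S100P and 29 to 31 before it in the others. Members with the letters ran from -0.90 to -0.32 in log2 fold change and those without (S100A2, S100A16 and S100A11) from -0.996 to -0.19, so the ranges overlap. The AP-1 letters TGANTCA, on either strand of the whole window, were in 1 of the 12 windows, the upstream one of S100A2, against 7.71% of all windows. Of 5 further motifs searched the same way, CCAAT was in 2 of the 12 windows (34.6% of all windows), GGGCGG in 4 (45%), TGACNNNGC in 3 (13.3%), CACGTG in 0 (7.26%) and GCGTG in 6 (36.5%). With 12 windows, some of them of 1 gene and near each other, these shares are a description only.

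Of 28 genes on a list of S100 partners 6 were in the table, all with a log2 fold change below 0, as had 64.8% of all listed genes. The test was passed by 3 of the 6, while 52.6% of all listed genes were called lower. These 3 were the tropomyosin TPM1 at -0.23 (edgeR adjusted p = 0.0210), the cochaperone FKBP4 at -0.29 (edgeR adjusted p = 0.0235) and ANXA1, annexin A1, the partner of S100A11, at -0.20 (SE 0.05, edgeR adjusted p = 0.0305). ANXA1 was at 157 to 166 TPM with extract and 169 to 183 TPM with vehicle. MYH9, the myosin heavy chain that S100A4 binds, was at -0.21 (edgeR adjusted p = 0.0586). EZR, the ezrin that S100P binds, was at -0.21 and ANXA2, annexin A2, at -0.21. Neither passed, with edgeR adjusted p of 0.109 for EZR and 0.184 for ANXA2, and they were named after their values were seen. The median of the 6, -0.21, was near that of all listed genes, and on the 4 other scales none of the 6 passed. Of 13 receptor genes on the list SORT1, sortilin, was the only one in the table. It was higher, at 51.7 to 55.0 TPM with extract and 42.0 to 44.5 TPM with vehicle, or 0.22 in log2 fold change (SE 0.04, edgeR adjusted p = 0.0145).

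Other EF-hand genes in the table were mostly of the myosin light chains. Of 35 on the list 5 were in the table, with 4 called lower and 1 not called. Of all listed genes 52.6% were called lower and 81.6% in either direction. These 5 are listed because they differed, so the count is no separate evidence about EF-hand genes. MYL9, the regulatory light chain of smooth muscle and nonmuscle myosin, was at 126 to 149 TPM with extract and 185 to 198 TPM with vehicle, or -0.53 in log2 fold change (SE 0.05, edgeR adjusted p = 0.00131). MYL6 was at -0.35 (SE 0.04), MYL12A at -0.27 and CALM2, one of the genes of calmodulin, at -0.23 (edgeR adjusted p = 0.00263, 0.00519 and 0.0103). RCN1, an EF-hand protein of the endoplasmic reticulum, was at 0.17 and missed the threshold (edgeR adjusted p = 0.112). MYL9 and MYL6 passed on the 4 other scales, MYL12A passed on the TPM scale alone and CALM2 on none of them, while RCN1 passed on the 3 scales computed over the listed genes.

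The listed genes most like a member over the 6 libraries were found from the root mean square difference of log2 normalised counts, each gene centred on its own mean. For S100A2 these were ABCA1 (0.10), LINC01411 (0.13), RPL39L (0.13), IGF1 (0.18) and RPL36A-HNRNPH2 (0.18). For S100A4 they were GCNT3 (0.09), RPL39L (0.11), UCA1 (0.12), ANKRD1 (0.12) and ASS1 (0.14). S100A2 and S100A4 differed from each other by 0.13, and RPL39L was near both. For S100P the nearest were NDUFA4 (0.04), TOMM7 (0.05), C19orf33 (0.06), SNHG29 (0.06) and NDUFAF2 (0.06). S100A6 differed from S100P by 0.07 and would stand at place 15 in that order, and S100A4 and S100A2 at places 927 and 961. The mean of a gene runs over both groups, so genes with alike fold changes come out near each other. The genes named for S100P had log2 fold changes of -0.35 to -0.25, and those for S100A2 and S100A4 of -1.20 to -0.74. These places therefore largely repeat the split in fold change given above.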

How the data were processed

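RNA of 6 libraries was compared, 3 with F/B extract and 3 with vehicle. Groups and replicate numbers come from the sample titles. Each column was matched to its sample by library name. The authors deposited 1 table of 1099 genes. The estimated counts in the deposited table, of which 31.8% to 35.9% in a library have decimals, were rounded. The authors also deposited TPM values and their own log2 fold changes, p-values and adjusted p-values, made with DESeq2 per the name of the table. The deposited log2 values are vehicle over extract, since the TPM ratio ran the other way in 1091 of 1099 genes. The submitters' processing notes name GRCh38.p13 as the build. Which aligner, counter and annotation made the counts is not given in the sources used here. Coordinates and transcript sequences were taken from GENCODE release 29 (GRCh38) by gene identifier, which matched all 8 members.

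Adjusted p-values of the authors follow the Benjamini-Hochberg relation for 11289 genes (largest relative error 0.00445), of which those listed are the first 9.74%. Sums over the listed genes, 3084338 to 3242561 counts with extract and 3436544 to 4640117 with vehicle, are not sequencing depth. The libraries' size factors were recovered from the authors' deposited fold changes, by matching DESeq2 fold changes to the deposited ones (median absolute log2 difference 5.8e-05): 0.920, 0.959 and 0.935 for extract replicates 1 to 3 and 0.940, 1.23 and 1.05 for vehicle replicates 1 to 3. All listed genes were fitted by quasi-likelihood in edgeR 4.0.16 (R 4.3.3, limma 3.58.1, DESeq2 1.42.0), with Benjamini-Hochberg adjustment over 11289 genes and a threshold of 0.05. The SE is the absolute log2 fold change over the square root of F. The spread was estimated from genes selected on small p-values, so p-values may be too small. Single values, among them ratios to S100P in normalised counts and in TPM, were tested with exact permutation tests over libraries (scipy 1.17.1).

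The members, the gene lists and the tests were chosen with earlier results of these data known. Named genes are the members, up to 4 listed genes per list by p-value, listed genes between the outermost chromosome 1 members, the 5 most alike genes for S100A2, S100A4 and S100P, and MTAP and VIL1. Listed markers, and EZR, ANXA2, RCN1 and VIM, are named outside this rule.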

Additional observations from a re-analysis of the deposited data

How the results depend on the processing

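The 7 members called lower became 4 with TMM, DESeq2 size factors or sums over the listed genes, with the scale implied by TPM and with a replicate block. They ranged from 4 to 8 with 1 library left out: 4 without extract replicate 2 or vehicle replicate 2. The 578 genes called lower became 87, 86, 126, 214 and 212 in the same 5 settings, and 124 to 570 with 1 library left out. The 319 called higher became 83 with the block and 50 to 286 with 1 library left out. The counts moved most without extract replicate 2 (179 lower, 69 higher), vehicle replicate 2 (124 lower, 50 higher) and vehicle replicate 3 (224 lower, 79 higher). On the 4 other scales more genes were called higher than lower: 385 higher with TMM, 387 with DESeq2 size factors, 386 with sums and 371 with the TPM scale. The 3 scales over the listed genes centre on selected genes, and how far that moved these counts was not tested. Deviations of same-numbered libraries from their group means gave Pearson r of -0.23, -0.01 and -0.03 across genes for numbers 1 to 3. Libraries of unlike number ranged from -0.205 to 0.234, so this cannot decide whether the numbers pair libraries. The block lost the calls of S100A6, S100A13 and S100P (edgeR adjusted p = 0.0503, 0.0596 and 0.0814). Against S100P, the sum of the chromosome 1 members gave -0.20 as a mean of log2 values, against 0.01 as a sum, and ranged from -0.0234 to 0.0777 with 1 library left out. S100A16 ranged from -0.116 to 0.0214, S100A13 from -0.0981 to 0.0410, S100A14 from -0.136 to -0.0113, S100A6 from -0.0893 to -0.00132 and S100A11 from 0.0763 to 0.188, and the share of S100P from -0.41 to 0.19 percentage points. The other filters removed 0 genes, so they could not change a call. Precision is limited by 3 libraries per group. Library depth is not given in the sources used here.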
